A study of Mus musculus with 6 samples.

Results

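The AP-1 Fos and Jun family was followed here in mouse hippocampus as 9 genes of a table of 23361: the Fos subfamily Fos, Fosb, Fosl1 and Fosl2, the Jun subfamily Jun, Junb and Jund, and the related factors Atf3 and Maff. The members were taken from the table by gene symbol, from a list drawn up with earlier results of these data known, and all 9 were found. The study compared 3 whole hippocampi of Tet1+/+ mice (wild-type) with 3 of Tet1Δe4-/- mice, in which exon 4 of the DNA dioxygenase gene Tet1 is deleted on both alleles (Tet1-deficient), by RNA sequencing. Every mouse of both genotypes had received an electroconvulsive shock through clamps on the ears (18 mA, 100 Hz, pulses of 0.2 ms for 1.15 seconds), which evokes a tonic-clonic seizure, and was sampled 1.5 to 2 hours later. The time of each mouse within that window is not given, nor are age and strain. Unshocked mice were not analysed here, so the values are levels after a seizure and not inductions. The wild-type library called replicate 1 here carries an f in its title code where the other 5 carry an m, and wild-type replicate 3 carries a b where the other 5 carry an a; the labels explain neither. Whether the libraries of a genotype come from separate litters or batches is not stated, so the p-values measure the spread between these samples alone.

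AP-1 is a family of transcription factors that bind DNA in pairs, held together by a leucine zipper beside a basic region that contacts the DNA. Jun proteins can pair with each other or with Fos proteins, whereas Fos proteins need a partner such as Jun. In hippocampal neurons several of the genes are immediate early genes: calcium entry and kinase signalling switch on their transcription within minutes of firing, through factors already present at their promoters, and the transcripts are short-lived. Fos mRNA is used widely as a mark of recently active neurons, and a stable splice product of Fosb, ΔFosB, builds up in the hippocampus after repeated seizures.

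The promoters of the members differ in the letters that CREB, ATF and AP-1 factors are known to bind, and the windows of Fos, Atf3, Jun and Maff are shown because they hold such letters. Each runs from 250 bases before to 50 bases after a RefSeq transcript start on GRCm38.p6 (the mm10 build), 5′ to 3′ on the strand of the gene. Capitals mark every match to 6 motifs searched on both strands: the cAMP response element TGACGTCA (CRE), its core TGACGT, the AP-1 element TGAGTCA, the related TGACATCA, the TATA box TATAAA and the CArG box of serum response factor. The core matches wherever the whole CRE does. Fos lies at chr12:85473640-85473939 on the plus strand, Atf3 at chr1:191183284-191183583 on the minus strand, Jun at chr4:95052173-95052472 on the minus strand, and the second of 3 listed Maff starts at chr15:79347270-79347569 on the plus strand.
Fos: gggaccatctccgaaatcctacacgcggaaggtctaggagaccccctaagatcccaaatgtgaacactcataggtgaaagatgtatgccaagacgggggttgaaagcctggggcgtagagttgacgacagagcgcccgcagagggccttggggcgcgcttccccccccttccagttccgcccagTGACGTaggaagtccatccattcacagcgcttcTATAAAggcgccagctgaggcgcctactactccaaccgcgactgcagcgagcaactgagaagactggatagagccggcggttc
Atf3: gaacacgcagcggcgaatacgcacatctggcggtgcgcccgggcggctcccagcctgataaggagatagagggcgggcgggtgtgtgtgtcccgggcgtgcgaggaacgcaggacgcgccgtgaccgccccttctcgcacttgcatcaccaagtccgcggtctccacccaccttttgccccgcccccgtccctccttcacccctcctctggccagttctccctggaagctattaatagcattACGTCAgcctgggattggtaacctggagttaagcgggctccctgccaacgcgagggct
Jun: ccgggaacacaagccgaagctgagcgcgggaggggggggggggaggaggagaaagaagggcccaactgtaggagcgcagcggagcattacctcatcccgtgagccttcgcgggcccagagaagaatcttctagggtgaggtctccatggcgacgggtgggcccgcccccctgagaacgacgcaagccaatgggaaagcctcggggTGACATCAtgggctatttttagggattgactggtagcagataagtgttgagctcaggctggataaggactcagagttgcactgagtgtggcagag
Maff: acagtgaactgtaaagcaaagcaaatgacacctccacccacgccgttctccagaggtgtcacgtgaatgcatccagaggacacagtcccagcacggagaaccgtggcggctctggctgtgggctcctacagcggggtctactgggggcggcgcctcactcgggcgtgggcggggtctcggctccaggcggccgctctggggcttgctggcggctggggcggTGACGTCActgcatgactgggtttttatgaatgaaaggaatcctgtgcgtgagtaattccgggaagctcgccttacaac

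The Fos window holds the CRE core with its first base 66 bases before the start and a TATA box at 33 bases. Atf3 holds the CRE core on the opposite strand at 8 bases before the start, and Maff a whole CRE at 29 bases. Jun holds TGACATCA at 45 bases before the start, and so does the third Maff start. Among all 32851 windows of the same length, 7.51% hold the CRE core, 1.79% the whole CRE, 3.62% TGACATCA, 5.20% the AP-1 element, 13.6% the TATA box and 1.63% a CArG box. Of the 10 windows of 8 members (Fosl1 had no entry), that of Junb holds a TATA box match that begins at the start itself. The windows of Fosb, Fosl2, Jund and the first Maff start hold none of the 6. The RefSeq starts of Junb and Jund lie 30 and 1210 bases before the gene starts in GENCODE, so the Jund window ends before the GENCODE gene begins, and the Junb positions depend on the start taken. A match describes the letters and does not show that a factor was bound. Bases outside the windows were not searched, so a window without a motif does not show that the gene lacks it.

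Levels are given in FPKM (fragments mapped, scaled to transcript length and to the mapped total of the library), which allows genes to be set side by side. Read depth cannot be read from this unit and is unknown, so no counting interval is given. The 6 libraries had FPKM sums from 371014 to 390042. Neuronal markers (Rbfox3, Snap25, Syt1, Tubb3) summed to between 1737 and 1980 FPKM, and dentate granule cell markers (Prox1, C1ql2, Dsp, Tdo2) to between 43.9 and 87.7 FPKM. None of the 32 markers of 8 cell types was at 0 in any library. In bulk tissue fewer cells of a type and less RNA per cell cannot be told apart. The targeted gene Tet1 was at 0.977, 0.718 and 0.897 FPKM (wild-type replicates 1 to 3) and 0.740, 0.685 and 0.638 FPKM (Tet1-deficient replicates 1 to 3); the groups overlapped, and a value over all exons does not check the loss of 1 exon. On the first principal component of all tested genes, which held 53.3% of the variance, wild-type replicate 1 and Tet1-deficient replicate 1 stood apart from the other 4 libraries, so 1 library of each genotype lies on that side. Their values are named beside the results they touch.

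Jun was the most abundant member by mean FPKM and Fosl1 the least. Over all 6 libraries the mean was 78.3 FPKM for Jun, 54.2 for Junb, 54.0 for Fosb, 42.4 for Fosl2, 35.9 for Jund, 25.0 for Fos, 16.9 for Atf3, 1.99 for Maff and 0.0701 for Fosl1. Jun exceeded Junb in 6 of 6 libraries, and Fosb exceeded Fosl2 in 6 of 6. Junb and Fosb could not be ordered (Junb higher in 3 of 6), nor could Fosl2 and Jund (Fosl2 higher in 3 of 6). Jund exceeded Fos in 4 of 6 and Fos exceeded Atf3 in 5 of 6, so these neighbours overlapped in range too. Maff lay below every Atf3 value and above every Fosl1 value in all 6 libraries. At this time after the shock, then, Fos itself ranked sixth, under its relatives Fosb and Fosl2 in 6 of 6 libraries.

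**Figure D1:**
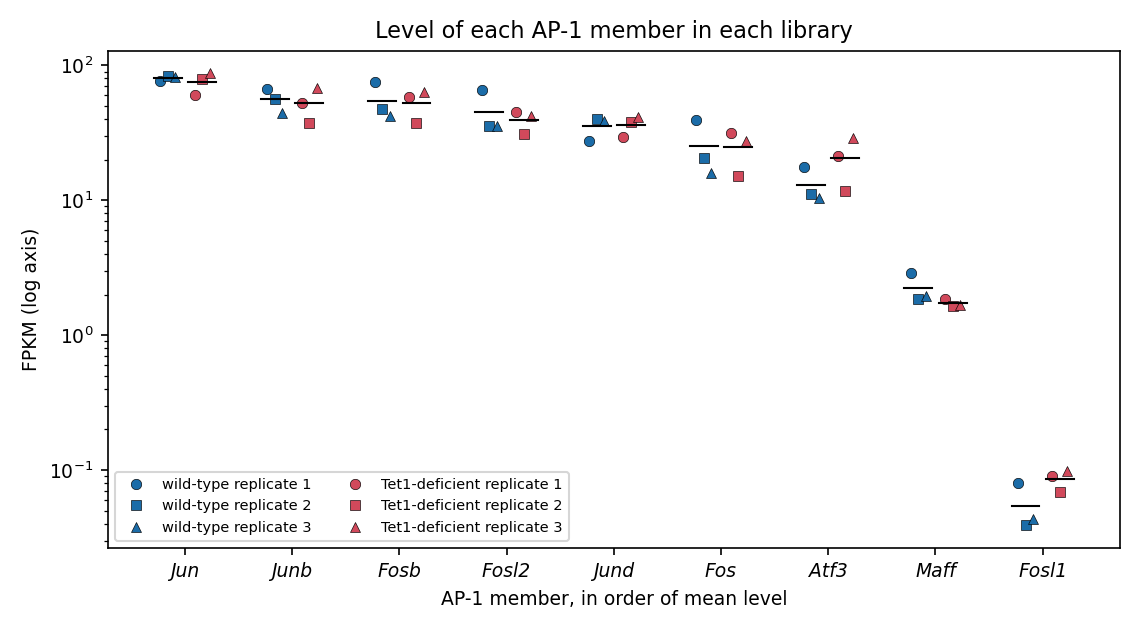
FPKM of each AP-1 member (log axis) in the 3 wild-type (blue) and 3 Tet1-deficient (red) libraries, with replicates as circle, square and triangle and the mean of each genotype as a bar. Jun has the highest mean (78.3 FPKM) and Fosl1 the lowest (0.0701 FPKM), and the genotypes overlap for every member.

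None of the members differed between genotypes beyond the spread of the replicates. Of the 8 members with a mean of at least 1 FPKM, 0 passed the threshold of 0.05 in limma (each adjusted p = 1 over the 12533 tested genes), where 4 genes or 0.0319% of those tested passed. At an unadjusted p under 0.05 the members numbered 0 of 8, against 1.36% of tested genes. The groups overlapped for all 8, whereas they did not overlap for 4.13% of tested genes. The estimates were higher in Tet1-deficient hippocampus for 3 members and lower for 5, with a median log2 difference of −0.07, beside 0.01 over all tested genes. With these shares in the background, 0 of 8 does not set the family apart. A positive log2 difference means a higher level in Tet1-deficient hippocampus, on the log2(FPKM + 1) scale, and intervals are limma's 95% intervals.

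**Figure D2:**
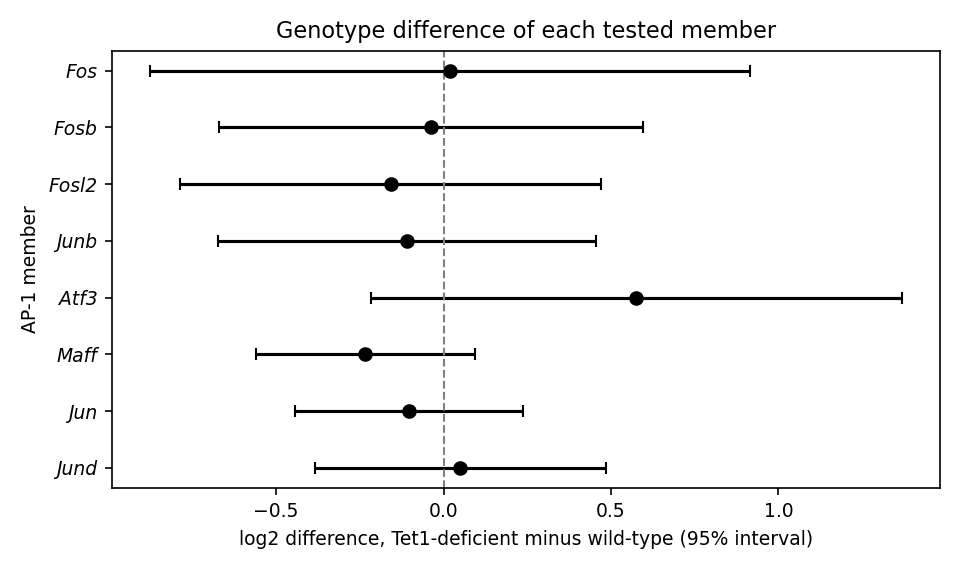
Log2 difference in log2(FPKM + 1), Tet1-deficient minus wild-type, for the 8 tested members, with points for the estimate and bars for the 95% interval from limma (3 libraries a genotype). Every interval crosses 0, and the intervals of Fos (−0.88 to 0.92) and Atf3 (−0.22 to 1.37) are wider than that of Jun (−0.44 to 0.24).

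Fos, whose product pairs with Jun proteins and whose 4-exon gene lies on chromosome 12 at 85473890 to 85477273, had 39.3, 20.4 and 15.9 FPKM in wild-type replicates 1 to 3. In Tet1-deficient replicates 1 to 3 it measured 31.8, 15.2 and 27.5 FPKM. Each genotype thus held both high and low libraries, with the highest in one and the lowest in the other. The means were 25.2 ± 12.4 and 24.8 ± 8.59 FPKM (SD, n = 3), a ratio of 0.986, and the log2 difference was 0.02 (interval −0.88 to 0.92, SE 0.38). The interval spans ratios from 0.544 to 1.89, so a change of nearly that size in either direction could not have been told from no change. The sign turned when any of 4 libraries was left out, with −0.08 without wild-type replicate 2, −0.25 without wild-type replicate 3, −0.18 without Tet1-deficient replicate 1 and −0.08 without Tet1-deficient replicate 3.

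Fosb encodes FosB and its truncated form ΔFosB, which a gene-level value cannot separate; the gene lies on chromosome 7 at 19302696 to 19310051. Wild-type replicates 1 to 3 had 74.8, 47.4 and 42.4 FPKM, and Tet1-deficient replicates 1 to 3 had 58.5, 37.6 and 63.0 FPKM. Wild-type replicate 1 was again highest and Tet1-deficient replicate 2 lowest, and the genotype means were 54.9 ± 17.4 and 53.1 ± 13.6 FPKM (SD, n = 3; log2 difference −0.04, interval −0.67 to 0.60). Fosl2, on chromosome 5 at 32135801 to 32157842, encodes Fra-2, a Fos relative without the long activation domain of Fos. Its wild-type values were 65.3, 35.7 and 35.2 FPKM and its Tet1-deficient values 45.3, 30.7 and 42.1 FPKM, with wild-type replicate 1 well above the other 5. The means were 45.4 ± 17.2 and 39.4 ± 7.67 FPKM (SD, n = 3; log2 difference −0.16, interval −0.79 to 0.47). Without wild-type replicate 1 the differences of Fosb and Fosl2 were 0.20 and 0.13, and without Tet1-deficient replicate 2 they were 0.19 and 0.01, so both signs rest on single libraries.

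Fosl1, which encodes Fra-1 and lies on chromosome 19 at 5447547 to 5455946, was listed at 0.0390 to 0.0808 FPKM in the 3 wild-type libraries. The Tet1-deficient libraries had 0.0693 to 0.0978 FPKM. These levels lie far under the 1 FPKM needed for testing, and no fold is read from them. Its annotated span shares 2767 bases with Ccdc85b on the opposite strand. The strand setting of the counting is not given, and reads of overlapping partners cannot be told apart without it.

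Within the Jun subfamily the levels of Jun and Jund varied less than those of the Fos genes. Jun, which encodes the kinase-regulated factor c-Jun from a single exon on chromosome 4 at 95049034 to 95052222, had wild-type values of 77.0, 83.0 and 82.1 FPKM. The Tet1-deficient values, replicates 1 to 3, were 60.6, 79.7 and 87.3 FPKM. Tet1-deficient replicate 1 was low and the other 5 lay together. The means were 80.7 ± 3.26 and 75.9 ± 13.7 FPKM (SD, n = 3; log2 difference −0.10, interval −0.44 to 0.24), and without Tet1-deficient replicate 1 the difference was 0.05. Jund, on chromosome 8 at 70698949 to 70700616, is known as the member expressed steadily without a stimulus. Its level was 27.5, 39.7 and 38.7 FPKM in the wild-type replicates and 29.7, 38.0 and 41.7 FPKM in the Tet1-deficient ones. The low value of each genotype came from the libraries that stood apart on the first principal component. The Jund means were 35.3 ± 6.77 and 36.5 ± 6.14 FPKM (SD, n = 3; log2 difference 0.05, interval −0.39 to 0.48), and the difference was −0.12 without wild-type replicate 1 and −0.05 without Tet1-deficient replicate 3. The annotation places the antisense transcripts Junos and Gm11175 over 689 bases of Jun and 919 bases of Jund.

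Junb, a rapidly induced relative of Jun on chromosome 8 at 84974484 to 84978718, varied like Fosb more than like Jun, as described further on. Wild-type replicates 1 to 3 had 67.1, 56.0 and 44.5 FPKM, and the Tet1-deficient replicates 52.3, 37.4 and 67.6 FPKM. Tet1-deficient replicate 2 was lowest, as for Fos and Fosb, and the highest were Tet1-deficient replicate 3 and wild-type replicate 1. The means were 55.9 ± 11.3 and 52.5 ± 15.1 FPKM (SD, n = 3; log2 difference −0.11, interval −0.67 to 0.45). The difference was 0.03 without wild-type replicate 1 and 0.11 without Tet1-deficient replicate 2. Prdx2, a peroxiredoxin gene on the opposite strand, overlaps the end of Junb by 351 bases.

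Atf3 and Maff gave the largest differences by size, in opposite directions, and both fell short of the threshold. Atf3, a stress-induced factor of the CREB and ATF family on chromosome 1 at 191170296 to 191218039, had 17.7, 11.1 and 10.4 FPKM in wild-type replicates 1 to 3. The Tet1-deficient replicates 1 to 3 had 21.1, 11.8 and 29.2 FPKM. Only Tet1-deficient replicates 1 and 3 exceeded every wild-type library. The means were 13.1 ± 4.06 and 20.7 ± 8.69 FPKM (SD, n = 3), a ratio of 1.58 and a log2 difference of 0.58 (interval −0.22 to 1.37). The unadjusted limma p was 0.130 and the exact two-sided permutation p 0.2, where 0.1 is the smallest that 3 against 3 can give. The difference kept its sign with any 1 library left out, between 0.30 without Tet1-deficient replicate 3 and 0.91 without Tet1-deficient replicate 2. With estimated library weights it was 1.16, with an adjusted p of 0.169, the lowest of any member in any alternative.

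Maff encodes a small Maf protein, which has a zipper but no activation domain, on chromosome 15 at 79346621 to 79359076. Its wild-type values were 2.90, 1.85 and 1.97 FPKM, and its Tet1-deficient values 1.85, 1.65 and 1.69 FPKM. Wild-type replicate 1 was high, and wild-type replicate 2 and Tet1-deficient replicate 1 had the same value to 3 digits. The means were 2.24 ± 0.577 and 1.73 ± 0.109 FPKM (SD, n = 3; log2 difference −0.23, interval −0.56 to 0.09), with p = 0.134 unadjusted in limma and p = 0.2 in the exact permutation test. Without wild-type replicate 1 the difference was −0.09. Near this level the added 1 FPKM understates a change, and with 0.1 FPKM added the difference was −0.33.

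Several members varied widely over the 6 libraries of both genotypes. The spreads given here pool the genotypes, so they include any difference between them. For Atf3 the lowest level was in wild-type replicate 3 (10.4 FPKM) and the highest in Tet1-deficient replicate 3 (29.2 FPKM). The SD of log2(FPKM + 1) over the 6 libraries was 0.56 for Atf3 and 0.53 for Fos (percentiles 98.9 and 98.7 of tested genes), where the median gene had 0.15. Fosl2, Fosb and Junb followed with 0.37, 0.37 and 0.33 (percentiles 95.4, 94.9 and 92.0). Jund, Maff and Jun had 0.24, 0.20 and 0.18 (percentiles 78.8, 69.2 and 62.2). From the lowest to the highest library the level spanned 2.82-fold for Atf3, 2.58-fold for Fos, 2.12-fold for Fosl2, 1.99-fold for Fosb and 1.81-fold for Junb, against 1.52-fold for Jund and 1.44-fold for Jun.

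The strongly varying members deviated largely in the same libraries, with exceptions for Junb and Atf3. Junb lay near its mean in Tet1-deficient replicate 1 (deviation −0.018). Atf3 deviated by 0.16 in wild-type replicate 1, where Fos deviated by 0.71. Wild-type replicate 1 and Tet1-deficient replicates 1 and 3 were the 3 highest libraries for Fos, Fosb, Fosl2 and Atf3, and Tet1-deficient replicate 2 was the lowest for Fos, Fosb, Fosl2, Junb and Maff. Likeness between members was measured as the root mean square difference of their deviations from their own means over the 6 libraries, on the log2(FPKM + 1) scale. The closest pair was Fosb and Fosl2 (0.12), followed by Fosb and Junb (0.14), Jun and Jund (0.15), and Fos and Fosb (0.18). Junb lay at 0.33 from Jun, and Atf3 at 0.34 from Fosb, the member nearest to it. The most distant were Fos and Jund (0.66), Jund and Atf3 (0.60), and Fos and Jun (0.58). The deviations are not scaled, so the measure depends on how much each member varies as well as on its pattern. Members that vary little lie close to each other, and a widely varying member lies far from a steady one. These are descriptions over 6 libraries and carry no test.

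**Figure D3:**
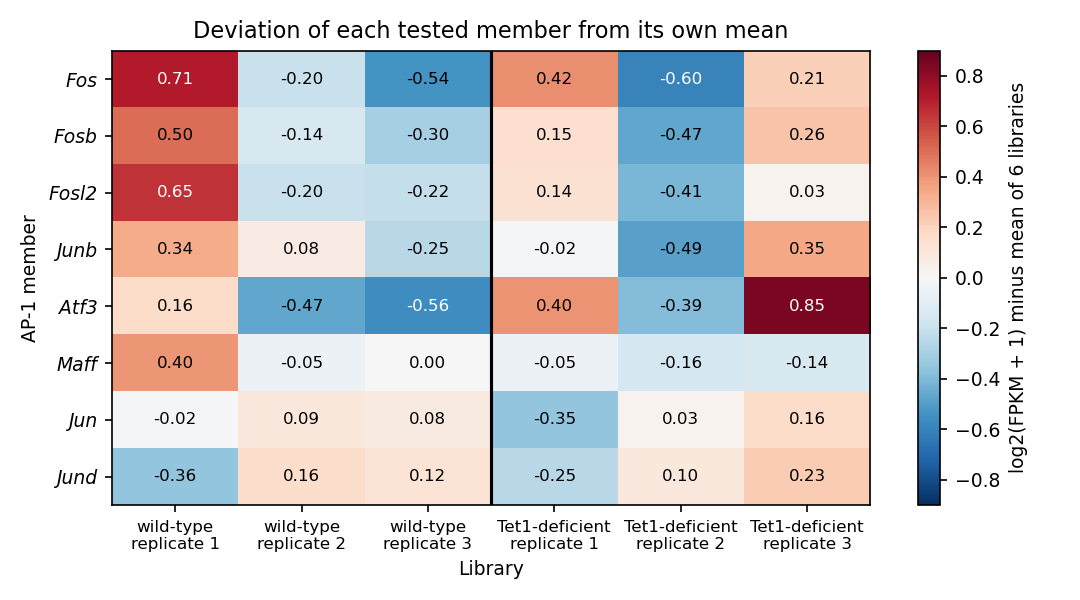
Deviation of log2(FPKM + 1) from the mean of 6 libraries for the 8 tested members (rows) in each library (columns, wild-type left of the line), red for higher and blue for lower. Fos, Fosb and Fosl2 are highest in wild-type replicate 1 and lowest in Tet1-deficient replicate 2, while Jund is lowest in wild-type replicate 1 and Tet1-deficient replicate 1.

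The balance between the Fos and Jun subfamilies differed between libraries of both genotypes. The summed level of Fos, Fosb, Fosl1 and Fosl2 came to 179, 104 and 93.6 FPKM in the wild-type replicates and to 136, 83.7 and 133 FPKM in the Tet1-deficient replicates. The summed level of Jun, Junb and Jund was steadier, at 172, 179 and 165 FPKM and 143, 155 and 197 FPKM. The ratio of the Fos sum to the Jun sum came to 1.05, 0.580 and 0.566 in the wild-type replicates and 0.951, 0.539 and 0.675 in the Tet1-deficient replicates. It was near 1 in the libraries that stood apart on the first principal component and between 0.539 and 0.675 in the other 4. Fosb made up 41.7% to 47.5% of the Fos sum in every library, Fos 17.0% to 23.4% and Fosl2 31.7% to 37.7%. Within the Jun sum the share of Junb ran from 24.1% in Tet1-deficient replicate 2 to 39.1% in wild-type replicate 1.

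**Figure D4:**
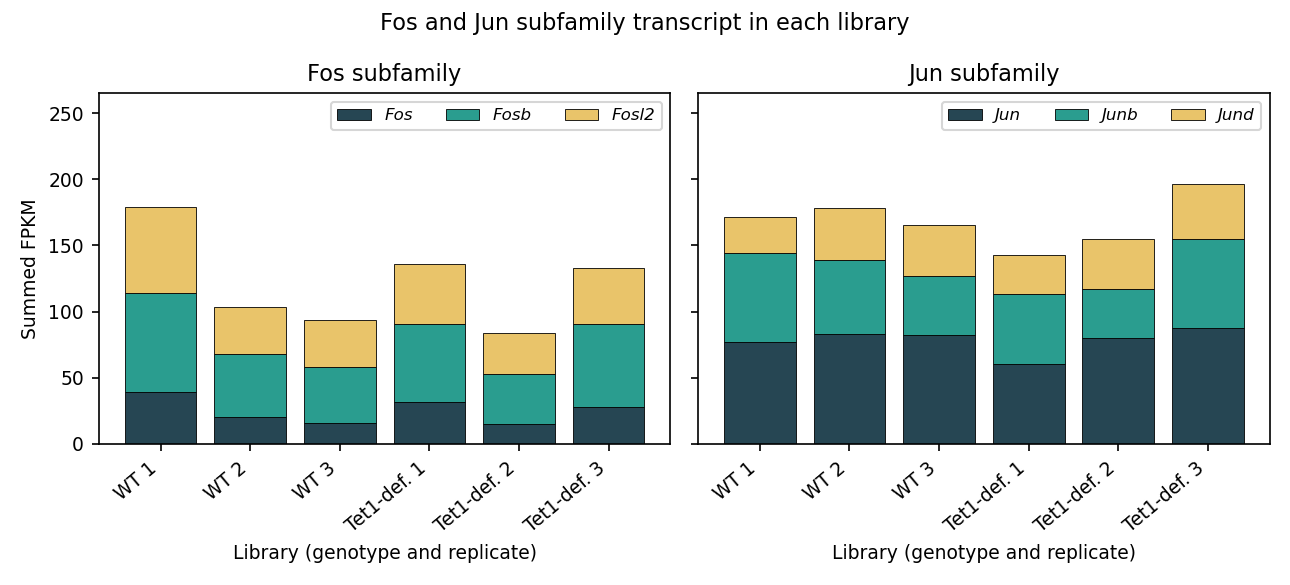
Summed FPKM of Fos, Fosb and Fosl2 (left) and of Jun, Junb and Jund (right) in each library, stacked by gene; WT is wild-type, Tet1-def. is Tet1-deficient, and the number is the replicate. The 3 Fos genes span 83.6 to 179 FPKM and the Jun subfamily 143 to 197 FPKM.

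Several cell type marker sums set particular libraries apart as well. Astrocyte markers (Aqp4, Gja1, Slc1a2, Aldh1l1) summed to 610 and 615 FPKM in wild-type replicate 1 and Tet1-deficient replicate 1 and to between 448 and 502 FPKM in the other 4 libraries. Neuronal markers were higher in that pair too, at 1875 and 1980 FPKM against 1737 to 1859 FPKM. So were microglia markers, by less, at 65.1 and 62.0 FPKM against 55.7 to 61.3 FPKM. Dentate granule cell markers summed to 52.0 and 43.9 FPKM in that pair and to between 67.6 and 87.7 FPKM in the others. That pair holds the highest Fos and the lowest Jund, but not the highest Junb or Atf3. Those were in Tet1-deficient replicate 3, with astrocyte, neuronal and dentate granule cell sums of 467, 1859 and 67.6 FPKM. Choroid plexus markers (Ttr, Folr1, Kl, Aqp1) summed to 301 FPKM in wild-type replicate 3 and 193 FPKM in Tet1-deficient replicate 2, the libraries with the lowest Fos, and to between 7.16 and 21.3 FPKM in the other 4. Endothelial markers (Cldn5, Pecam1, Flt1, Cdh5) were highest in the same 2 libraries, at 21.1 and 18.0 FPKM against 7.14 to 12.1 FPKM. The part of these cell types in the AP-1 levels was not tested.

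By genotype the marker sums overlapped for all 8 cell types. Endothelial markers ranged from 9.93 to 21.1 FPKM in the wild-type libraries and from 7.14 to 18.0 FPKM in the Tet1-deficient ones. Mural cell markers (Pdgfrb, Rgs5, Acta2, Tagln) ranged from 19.4 to 34.8 and 15.7 to 25.2 FPKM, and meningeal fibroblast markers (Col1a1, Col3a1, Dcn, Lum) from 25.0 to 43.0 and 24.0 to 26.9 FPKM. All 4 markers of each of these 3 types had lower estimates in Tet1-deficient hippocampus, as did 5901 of the 12533 tested genes. These directions were read without the 1 FPKM filter. Of the 12 markers 0 passed the threshold, beside 0.0319% of tested genes, and a marker under the filter could not pass. Microglia markers (Cx3cr1, P2ry12, Tmem119, Csf1r) ranged from 57.4 to 65.1 and 55.7 to 62.0 FPKM.

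Outside the family, the genes closest to Fos across the libraries included Egr1, Egr4, Nr4a1 and Nr4a2, which are known as immediate early genes. By the same root mean square difference the 5 nearest of the tested genes were Frmd6 (0.10), Egr1 (0.11), Egr4 (0.13), Nr4a1 (0.14) and Nr4a2 (0.15). Egr1, a zinc finger factor induced by neuronal firing, had 169, 87.4 and 81.2 FPKM in the wild-type replicates and 144, 74.0 and 107 FPKM in the Tet1-deficient replicates. It was high and low in the same libraries as Fos. Frmd6, which encodes a FERM-domain protein, measured 22.3, 12.4 and 10.5 FPKM and 17.7, 9.53 and 15.2 FPKM. For Atf3, the member that varied most, the nearest genes were more distant: Zswim6 (0.30), Btaf1 (0.30), Ranbp2 (0.30), Abhd1 (0.30) and 2010003O02Rik (0.31).

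**Figure D5:**
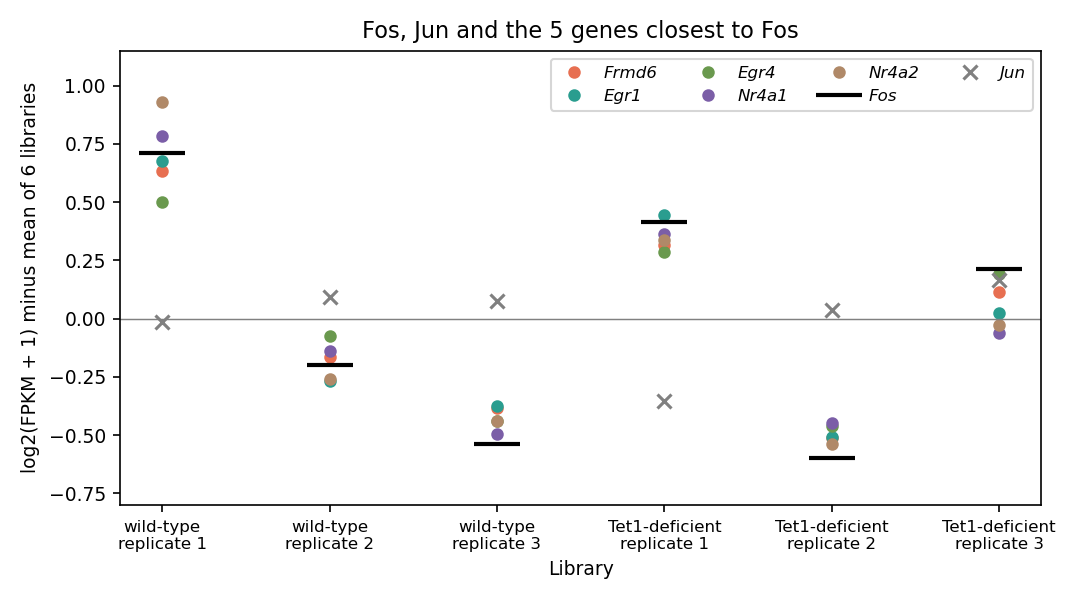
Deviation of log2(FPKM + 1) from the mean of 6 libraries for Fos (black bars), Jun (grey crosses) and the 5 tested genes closest to Fos (coloured points) in each library. Taken over the 6 libraries, the root mean square difference from Fos is 0.10 to 0.15 for the 5 genes and 0.58 for Jun. It does not bound the gap in any single library.

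Genes of proteins that pair with Fos, Jun and Maf factors were counted next, and every count of 0 in these pathway lists stands beside 0.0319% of all tested genes past the threshold and 1.36% at an unadjusted p under 0.05, so such a count sets no list apart. Of 19 listed bZIP partners 13 were tested, with 5 higher, 8 lower and 0 past the threshold in limma (0 also at an unadjusted p under 0.05) and a median log2 difference of −0.02. Mafk, a small Maf gene, had the highest estimate (8.38 ± 0.938 and 9.37 ± 1.09 FPKM; SD, n = 3; log2 difference 0.14). The untested 6 (Batf, Batf2, Batf3, Mafa, Nfe2 and Nrl) had means from 0.0271 to 0.735 FPKM. Of these, Batf3 had 0.238, 0.243 and 0.537 FPKM in the wild-type replicates and 0.114, 0.215 and 0.226 FPKM in the Tet1-deficient replicates, without overlap. The groups did not overlap for Nfe2 either, at 0.104 FPKM or less. The share without overlap was counted for tested genes alone, and no fold is read at these levels.

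Among the factors and kinases that act on Fos and Jun promoters and proteins, 0 of 28 tested genes passed the threshold in limma, and 0 had an unadjusted p under 0.05. Of the 14 transcription factors and coactivators, 6 were higher and 8 lower, with a median log2 difference of −0.0041. Mkl1, a coactivator of serum response factor, stood highest (42.6 ± 13.8 and 44.0 ± 8.81 FPKM; log2 difference 0.08) and the ternary complex factor Elk3 lowest (1.60 ± 0.221 and 1.45 ± 0.119 FPKM; log2 difference −0.09). Of the 14 kinases of the ERK, JNK, RSK and MSK groups 8 were higher and 6 lower, with a median of 0.02. Rps6ka3, which encodes the kinase RSK2, measured 11.4 ± 0.618 and 13.4 ± 1.58 FPKM (log2 difference 0.22), and Map2k7, which encodes an activator of JNK, 26.6 ± 5.75 and 24.2 ± 5.12 FPKM (log2 difference −0.13; SD, n = 3).

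Genes that set the turnover of AP-1 transcripts and proteins gave 3 higher and 5 lower of 8 tested, with 0 past the threshold in limma, 0 at an unadjusted p under 0.05, and a median log2 difference of −0.0043. Zfp36, whose product destabilises AU-rich mRNAs such as that of Fos, had means of 2.77 ± 0.573 FPKM (wild-type) and 3.51 ± 0.392 FPKM (Tet1-deficient; SD, n = 3; log2 difference 0.27, unadjusted p 0.0999 in limma). Its relative Zfp36l2 measured 6.92 ± 0.244 and 6.30 ± 0.767 FPKM (log2 difference −0.12). The groups did not overlap for 1 of the 8, against 4.13% of all tested genes. That gene was Fbxw7, named after its values were seen, which encodes a ubiquitin ligase subunit that targets Jun proteins. Its wild-type values were 70.7, 72.1 and 71.3 FPKM and its Tet1-deficient values 82.7, 78.6 and 72.2 FPKM (log2 difference 0.12, unadjusted limma p 0.207).

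Of 25 genes reported to be bound or regulated by AP-1 proteins, 20 were tested, with 13 higher, 7 lower, 0 past the threshold in limma and 1 with an unadjusted p under 0.05; the median log2 difference was 0.02. The gene at that level was Pdyn, which encodes the opioid precursor prodynorphin. The wild-type replicates had 8.04, 7.85 and 6.62 FPKM, and the Tet1-deficient replicates 5.32, 4.80 and 5.76 FPKM. The groups did not overlap, and the log2 difference was −0.43 (interval −0.69 to −0.18; unadjusted limma p 0.00542, adjusted p = 1; exact permutation p 0.1, the smallest possible). One such gene in 20 stands beside 1.36% of all tested genes. Hmox1, the haem oxygenase gene, had the highest estimate (2.92 ± 0.736 and 3.88 ± 1.13 FPKM; SD, n = 3; log2 difference 0.31, unadjusted p 0.178 in limma). The 5 targets under the filter (Timp1, Plaur, Mmp3, Mmp9 and Gal) had means from 0.0047 to 0.831 FPKM. Of these Gal, the galanin gene, had 0.889, 1.75 and 1.06 FPKM in the wild-type replicates and 0.613, 0.368 and 0.310 FPKM in the Tet1-deficient replicates, without overlap. Fitted without the filter, its log2 difference was −0.63 (interval −1.01 to −0.25; unadjusted limma p 0.00629, adjusted p = 1), larger in size than that of Pdyn; Gal was named after its values were seen.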

How the data were processed

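The authors deposited 1 table of gene-level FPKM values with 1 column for each library. TopHat2 2.0.9 and Cufflinks 2.1.1 were used on mm10, per the submitters' processing notes. The annotation, strand setting and filters were not given in the sources used here. Values were taken as log2(FPKM + 1). Genes averaging 1 FPKM or more over the 6 libraries (12533) were fitted with limma 3.58.1 (R 4.3.3, intensity trend, no covariate), two-sided, with Benjamini-Hochberg adjustment over all of them and a threshold of 0.05. Untested genes were fitted in the same model without the filter. The fit was tested on simulated data. Replicate numbers follow sample order and pair nothing. The members and lists were chosen with earlier results of these data known. Named were all members, the highest and lowest estimate of each pathway list, Tet1, and the 5 genes nearest to Fos and to the most variable member. Gene positions are from GENCODE M21 (GRCm38), promoters from RefSeq. Tried beside this were no filter, a pseudocount of 0.1 FPKM, median-of-ratios scaling, quantile normalization, no trend, library weights and each library left out. A term for the principal component split and a fit to 4 libraries were added after the data were seen. One marker list and 1 gene that the naming rule takes are not reported here.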

Additional observations from a re-analysis of the deposited data

How the results depend on the processing

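No member passed the threshold of 0.05 in any of the 14 alternatives. Adjusted p-values of the members ran from 0.169 (Atf3, library weights) to 1. Atf3 stayed higher and Maff stayed lower in all 14. Fosl1 also kept a positive sign, but at levels too near 0 for a fold to be read. The signs of the other members turned in some. With library weights the log2 difference was 0.34 for Fosb, 0.15 for Fosl2, 0.054 for Jun and 0.26 for Junb, and in the 4 libraries alone it was 0.12, 0.020, 0.015 and 0.013. With 1 library left out it ran from −0.25 to 0.38 for Fos, −0.20 to 0.20 for Fosb, −0.31 to 0.13 for Fosl2, −0.21 to 0.048 for Jun, −0.31 to 0.11 for Junb and −0.12 to 0.19 for Jund. The count of genes past the threshold, 4 in the full fit, was 59 with library weights, 8 with the split as a term, 13 in the 4 libraries alone and from 0 to 6 with 1 library left out. The median log2 difference was −0.0064 for the kinases after quantile normalization and −0.070 for the transcription factors with library weights. With 1 library left out it ran from −0.021 to 0.043 for the kinases, −0.010 to 0.095 for the turnover genes and −0.11 to 0.087 for the reported targets. The causes were not tested. No paired analysis was possible because the labels give the libraries no shared replicate numbers. Read depth is unknown, so values near 0 such as those of Fosl1 carry no counting error.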

Other observations

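Among the listed pathway genes, 4 were picked out after their values were seen because they separated wild-type replicate 1 and Tet1-deficient replicate 1, the libraries with the highest Fos, from the other 4. Bdnf, the neurotrophin gene, measured 65.8 and 59.6 FPKM in that pair and 41.4 to 48.0 FPKM in the others. Scg2, which encodes the dense-core vesicle protein secretogranin II and is likewise a reported AP-1 target, went the other way, with 124 and 111 FPKM in the pair and 143 to 150 FPKM in the others. Elavl1, whose product HuR binds and stabilises AU-rich mRNAs, measured 17.6 and 17.4 FPKM in the pair and 12.3 to 14.3 FPKM in the others. Khsrp, whose product promotes the decay of such mRNAs, measured 25.2 and 24.8 FPKM in the pair and 31.3 to 36.6 FPKM in the others. Between genotypes these genes had log2 differences of 0.02 for Bdnf, −0.08 for Scg2, −0.0028 for Elavl1 and −0.01 for Khsrp. Other listed genes separated the pair too, some more widely. Inhba measured 28.5 and 46.6 FPKM in the pair and 89.4 to 106 FPKM in the others. Mapk8 measured 28.4 and 35.1 FPKM in the pair and 18.0 to 20.1 FPKM in the others. How many genes did so was not counted, so the 4 are examples, and a part of mRNA stability was not tested. The pair was set apart by all tested genes together, so the separation carries no test.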
